A study of Mus musculus with 16 samples.

Results

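This account follows 10 genes through early blood formation in mice with little PU.1: the lysosomal cathepsins *Ctsa*, *Ctsb*, *Ctsc*, *Ctsd*, *Ctse*, *Ctsh*, *Ctsl*, *Ctss* and *Ctsz*, and the legumain gene *Lgmn*. They were chosen by name as genes of lysosomal proteases, with earlier results of these data known, and are 10 of the 54347 genes counted. The data are RNA-seq libraries of LSKs and GMPs, each from URE and from WT mice, in 4 groups of 4 libraries, 16 in all. LSKs, sorted from bone marrow as Lin- Sca-1+ c-Kit+, hold the blood stem cells. GMPs are Lin- Sca-1- c-Kit+ Cd16/32+ cells, the progenitors of granulocytes and macrophages. URE mice lack the upstream regulatory element of *Spi1*, the gene of the transcription factor PU.1, on both alleles (UREd/d), and the WT mice were their littermates. All were C57BL/6 mice aged 8 to 12 weeks, and the deletion is inherited, so that the cells around the sorted ones carry it too.

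Lysosomes are the acidic compartments in which cells break down proteins, and cathepsins are the proteases that do most of this work. Most cathepsins and legumain are made as inactive precursors, carried to the lysosome by receptors for mannose 6-phosphate, and activated there by cleavage. Macrophages, monocytes and dendritic cells are known for high levels of several of them, above all cathepsin S and legumain, and PU.1 is a master regulator of those lineages. Cathepsins B, C, H, L, S and Z are cysteine proteases related to papain, cathepsins D and E are aspartic proteases, cathepsin A is a serine carboxypeptidase, and legumain cuts after asparagine.

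The members' promoters were read from RefSeq on GRCm38.p6, which gave windows for 7 of the 10 genes. No window was shown for *Ctsb*, *Ctse* and *Ctsh*. Each window runs from 250 bases before the start of a transcript to 50 bases after it, 300 bases in all. Searched on both strands were the letters GAGGAAGT and, within them, GAGGAA, a core that PU.1 is known to bind, TGTGGT, a core of RUNX factors, and CACGTG, the core of the element through which the TFEB family drives lysosomal genes. The windows below are shown because *Ctss* and *Ctsc* are the members with the PU.1-type letters, while *Ctsd* and *Ctsa* carry CACGTG at 2 places each. Capitals mark GAGGAA, read on either strand, and the letters CACGTG.
Ctss, chr3:95526536-95526835, plus strand: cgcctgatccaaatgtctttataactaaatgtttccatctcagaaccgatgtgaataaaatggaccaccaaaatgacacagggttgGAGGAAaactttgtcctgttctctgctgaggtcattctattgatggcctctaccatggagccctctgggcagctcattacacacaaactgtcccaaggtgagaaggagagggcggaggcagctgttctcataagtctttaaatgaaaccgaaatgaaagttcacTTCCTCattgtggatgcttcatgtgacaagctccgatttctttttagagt
Ctsc, chr7:88277835-88278134, plus strand: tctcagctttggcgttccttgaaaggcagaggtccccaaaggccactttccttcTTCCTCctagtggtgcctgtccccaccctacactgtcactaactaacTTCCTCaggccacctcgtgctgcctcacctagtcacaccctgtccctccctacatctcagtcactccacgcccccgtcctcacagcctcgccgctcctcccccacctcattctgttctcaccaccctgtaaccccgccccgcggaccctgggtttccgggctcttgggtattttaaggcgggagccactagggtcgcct
Ctsd, chr7:142387778-142388077, minus strand: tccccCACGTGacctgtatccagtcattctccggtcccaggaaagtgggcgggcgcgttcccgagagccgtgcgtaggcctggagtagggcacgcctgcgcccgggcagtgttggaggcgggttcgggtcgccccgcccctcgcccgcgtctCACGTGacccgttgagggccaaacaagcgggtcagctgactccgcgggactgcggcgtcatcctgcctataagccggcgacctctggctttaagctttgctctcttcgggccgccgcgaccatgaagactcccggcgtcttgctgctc
Ctsa, chr2:164833523-164833822, plus strand: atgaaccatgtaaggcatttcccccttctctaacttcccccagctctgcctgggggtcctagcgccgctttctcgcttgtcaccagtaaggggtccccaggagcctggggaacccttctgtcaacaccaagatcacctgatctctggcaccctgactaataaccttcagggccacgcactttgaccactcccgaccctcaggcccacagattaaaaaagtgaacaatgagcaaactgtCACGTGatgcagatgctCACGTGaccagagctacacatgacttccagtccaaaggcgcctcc

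The 8 letters GAGGAAGT were found in *Ctss* and *Ctsc* among the 7 genes and in 3.202% of all windows of this length. In *Ctss* they span the transcription start on the opposite strand, their first base lying 2 bases before it, and in *Ctsc* they lie 151 bases before it. The shorter GAGGAA was in the same 2 members and in 28.276% of all windows. CACGTG was in *Ctsa*, *Ctsd*, *Ctsl* and *Lgmn* and in 7.15% of all windows. TGTGGT was in *Ctsa* and *Lgmn* and in 16.761% of all windows. A member was counted if any of its windows held the letters, and the 7 members have 9 windows, whereas the percentages are of single windows. A match is a description of letters, and binding was not measured here.

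Each library held between 20028302 and 29128858 counts, and the 10 genes together took between 0.133% and 0.187% of them. Levels are given as CPM, counts relative to the library total after TMM scaling (trimmed mean of M values). The targeted gene was checked first. *Spi1* had 3.02 ± 1.42 CPM (SD, n = 4) in URE LSKs against 124 ± 40.0 CPM in WT LSKs, and 21.3 ± 5.96 CPM in URE GMPs against 140 ± 40.5 CPM in WT GMPs. The sort by Sca-1 was met by its gene: *Ly6a*, which encodes Sca-1, had 91.7 ± 20.9 CPM in WT LSKs and 2.25 ± 0.58 CPM in WT GMPs. In URE it had 61.3 ± 34.0 CPM in LSKs and 1.36 ± 0.89 CPM in GMPs. Same-numbered libraries deviated together from their group means. Y-linked transcripts and *Xist*, which tell sex, put replicate 1 of both genotypes as male, replicate 4 of both as female, and replicates 2 and 3 as female in URE and male in WT. In replicates 2 and 3 sex and genotype therefore cannot be told apart. Values within replicates 1 and 4, where the sexes match, are given for the members that were called and as counts for the lists. Replicates 1 and 4 were also the most alike pair of libraries in every group, by a chi-square of their counts. Per degree of freedom it was 29.6 in URE LSKs, 57.2 in WT LSKs, 54.8 in URE GMPs and 58.4 in WT GMPs. The subsets of replicates may thus differ in more than sex, which was not tested. The URE LSK library of replicate 3 stood apart, with 450 CPM summed over 4 megakaryocyte markers. The other URE LSK libraries had 5.20 to 11.5 CPM, and the WT LSK libraries 19.0 to 26.9 CPM. Whether the LSK and GMP libraries of a number come from 1 mouse is not given.

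**Figure D1:**
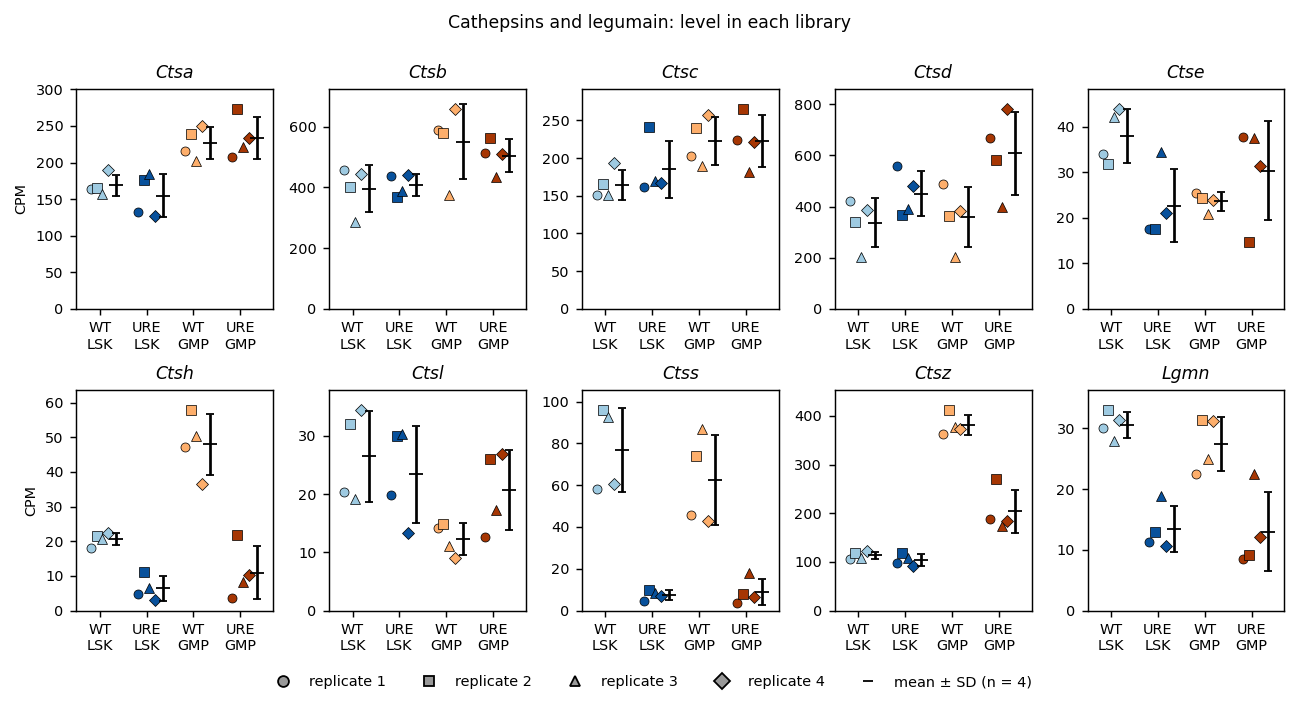
Level of each of the 10 genes in CPM (linear axis from 0) in each library, by group, with symbols for the replicate number and the mean ± SD of 4 libraries as a bar. *Ctss*, *Ctsh* and *Lgmn* lie lower in every URE library than in every WT library of the same cell type, *Ctsz* does so in GMPs alone, and the other 6 genes overlap between genotypes.

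The first comparison asked what the loss of the element did in LSKs. The main differences were in *Ctss*, *Ctsh* and *Lgmn*, which all fell in URE LSKs, whereas *Ctsa*, *Ctsb*, *Ctsc*, *Ctsd*, *Ctse*, *Ctsl* and *Ctsz* did not pass the test. Calls rest on the quasi-likelihood test of edgeR, with p-values adjusted by Benjamini-Hochberg over all 15154 genes tested, and require an adjusted p under 0.05 together with a fold change above 1.5. Libraries were not paired by replicate number in this fit. SE is the standard error of a log2 fold change. All 10 members were tested, 0 were called higher and 3 lower, against 2.38% of all genes tested called higher and 3.76% called lower. Because the members were chosen with earlier results known, such shares give the scale and are no test of the set. The median log2 fold change of the members was −0.18, and that of all genes tested was 0.00093.

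*Ctss* (ENSMUSG00000038642, chromosome 3 from 95526786 to 95556403 in the GENCODE M21 annotation of GRCm38) encodes cathepsin S, which trims the invariant chain from MHC class II molecules in antigen-presenting cells. The WT LSK libraries had 58.3, 95.8, 92.6 and 60.5 CPM in the order of their replicate numbers. The URE LSK libraries had 4.48, 9.63, 8.37 and 7.18 CPM. The highest URE library was thus far below the lowest WT library, and replicates 2 and 3 were the higher ones in both genotypes. The mean was 7.42 ± 2.20 CPM (SD, n = 4) in URE and 76.8 ± 20.1 CPM in WT. On the log2 scale the change was −3.40 (SE 0.31, edgeR adjusted p = 0.000319), 10.6-fold lower by the fit. An exact permutation test, two-sided, gave p = 0.0286, the lowest possible with 4 against 4 libraries. Replicates 1 and 4 alone gave −3.38 and replicates 2 and 3 alone gave −3.41.

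*Lgmn* (ENSMUSG00000021190, chromosome 12 from 102394084 to 102439813) encodes legumain, which helps mature several cathepsins. The WT LSK libraries had 30.1, 33.0, 28.0 and 31.4 CPM, and the URE LSK libraries 11.3, 13.0, 18.8 and 10.7 CPM. The WT values were close together, and the URE library of replicate 3 was the nearest to them without reaching them. The fitted log2 fold change was −1.22 (SE 0.23, edgeR adjusted p = 0.0128), or 2.32-fold lower. It was −1.52 within replicates 1 and 4 (edgeR adjusted p = 0.0116) and −0.97 within replicates 2 and 3 (edgeR adjusted p = 0.314), and without the WT library of replicate 2 the adjusted p was 0.053.

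*Ctsh* (ENSMUSG00000032359, chromosome 9 from 90054152 to 90076089) encodes cathepsin H, an aminopeptidase. It had 18.0, 21.6, 20.7 and 22.3 CPM in WT LSKs and 4.91, 11.3, 6.60 and 2.97 CPM in URE LSKs. The groups did not overlap, and the URE libraries differed among themselves more than the WT libraries did. The log2 estimate was −1.71 (SE 0.38, edgeR adjusted p = 0.0267), or 3.26-fold lower. This call was the least steady of the 3: leaving out any of the 4 WT libraries, or URE replicate 1 or 3, ended it, with a log2 fold change between −2.11 and −1.47 over all left-out libraries. It was −2.38 within replicates 1 and 4 (edgeR adjusted p = 0.0125) and −1.27 within replicates 2 and 3 (edgeR adjusted p = 0.234), and the call also ended once the level of Y-linked transcripts was a covariate (edgeR adjusted p = 0.0814).

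These 3 members were also the ones of 10 whose genotypes did not overlap in LSKs, against 12.6% of all genes tested. Among the others, *Ctse* (ENSMUSG00000004552, chromosome 1 from 131638306 to 131675505), which encodes cathepsin E, an aspartic protease of endosomes, was the nearest to a call. It had 34.0, 31.8, 42.2 and 44.0 CPM in WT LSKs and 17.5, 17.5, 34.5 and 21.2 CPM in URE LSKs. Only the URE library of replicate 3, the one with the highest sum of megakaryocyte markers, reached into the WT range. Its log2 fold change was −0.78 (SE 0.26, edgeR adjusted p = 0.156). With the replicate number as a block it was −0.82 and was called (edgeR adjusted p = 0.0215), as it was without that library, at −1.05 (edgeR adjusted p = 0.0223).

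The enzymes found in most cell types showed differences within the spread between libraries in LSKs. *Ctsb*, a cysteine protease that also trims peptide ends, had 409 ± 36.0 CPM in URE and 397 ± 78.6 CPM in WT LSKs, a log2 fold change of 0.02 with a 95% interval from −0.37 to 0.40. *Ctsc*, which activates the serine proteases of granules, stood at 0.14 (−0.26 to 0.53) and *Ctsa*, which protects other lysosomal hydrolases, at −0.15 (−0.54 to 0.23). *Ctsz*, a carboxypeptidase, stood at −0.16 (−0.49 to 0.17), and *Ctsl*, a broad endopeptidase, at −0.20 (−0.91 to 0.50). Of these intervals, that of *Ctsl* alone holds a 1.5-fold fall, and none holds a 1.5-fold rise.

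The same question was asked in GMPs. There *Ctss* and *Ctsh* were again lower in URE, *Ctsz* fell as well, and *Lgmn* had a similar size of difference without passing the test. Of the 10 members, 0 were called higher and 3 lower, against 4.67% of the 13829 genes tested called higher and 3.63% called lower. Of the members, 4 did not overlap between genotypes, against 14.8% of all genes tested. The median log2 fold change of the members was −0.069, and that of all genes tested was 0.0052.

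In WT GMPs *Ctss* had 45.9, 74.0, 86.6 and 42.8 CPM. In URE GMPs it had 3.71, 7.73, 17.9 and 6.47 CPM. The groups were again far apart, and replicates 2 and 3 were again the higher ones. The log2 fold change was −2.80 (SE 0.50, edgeR adjusted p = 0.00849), 6.99-fold lower, with −3.14 within replicates 1 and 4 (edgeR adjusted p = 0.00177) and −2.66 within replicates 2 and 3 (edgeR adjusted p = 0.0734).

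*Ctsh* had 47.1, 57.8, 50.4 and 36.4 CPM in WT GMPs and 3.76, 21.8, 8.14 and 10.2 CPM in URE GMPs. The URE library of replicate 2 was the highest of its group and still below every WT library. On the log2 scale the change was −2.15 (SE 0.46, edgeR adjusted p = 0.0190), 4.45-fold lower. Without URE replicate 3 or 4, or without WT replicate 2, the adjusted p passed 0.05, and the log2 fold change lay between −2.72 and −1.87 over all left-out libraries. Within replicates 1 and 4 it was −2.60 (edgeR adjusted p = 0.0145), and within replicates 2 and 3 (edgeR adjusted p = 0.157) or with the Y-linked covariate (edgeR adjusted p = 0.0677) it was not called.

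*Ctsz* (ENSMUSG00000016256, chromosome 2 from 174427493 to 174439039) had 362, 411, 376 and 373 CPM in WT GMPs and 189, 269, 174 and 185 CPM in URE GMPs. WT libraries lay close together, and the URE library of replicate 2 was above the other URE libraries. The fitted log2 fold change was −0.91 (SE 0.16, edgeR adjusted p = 0.00774), 1.88-fold lower, and it stayed called without any single library. It was −0.99 within replicates 1 and 4 (edgeR adjusted p = 0.0225) and −0.86 within replicates 2 and 3 (edgeR adjusted p = 0.219).

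*Lgmn* had 22.5, 31.3, 25.0 and 31.2 CPM in WT GMPs and 8.43, 9.08, 22.4 and 12.1 CPM in URE GMPs. The URE library of replicate 3 was just under the lowest WT library, and the other URE libraries were far below. The log2 estimate of −1.07 (SE 0.34) was not called (edgeR adjusted p = 0.0909). It was called with the replicate block at −1.19 (edgeR adjusted p = 0.0209) and without URE replicate 3 at −1.51 (edgeR adjusted p = 0.00778). It was also called in the joint fit of all libraries (edgeR adjusted p = 0.0234), with DESeq2 (adjusted p = 0.0273) and within replicates 1 and 4, at −1.40 (edgeR adjusted p = 0.0332).

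*Ctsd* (ENSMUSG00000007891, chromosome 7 from 142375911 to 142388038) encodes the main aspartic protease of lysosomes and pointed the other way. The WT GMP libraries had 487, 364, 203 and 384 CPM and the URE GMP libraries 669, 582, 400 and 783 CPM, so that the groups overlapped. By replicate number, however, URE was above WT in 4 of 4 pairs, with log2 ratios of 0.46, 0.68, 0.98 and 1.03. Its log2 fold change of 0.75 (SE 0.28) was not called (edgeR adjusted p = 0.159), and with the replicate block it was 0.78 and was called (edgeR adjusted p = 0.00848). Within replicates 1 and 4 it was 0.72 and was not called (edgeR adjusted p = 0.108). In LSKs *Ctsd* had 421, 338, 204 and 388 CPM in WT and 558, 369, 391 and 482 CPM in URE. URE was above WT in 4 of 4 pairs there too, with log2 ratios of 0.41, 0.12, 0.94 and 0.31. That log2 fold change of 0.39 (SE 0.23) was not called without the block (edgeR adjusted p = 0.548) or with it (edgeR adjusted p = 0.145).

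*Ctsl* had 12.3 ± 2.75 CPM in WT GMPs and 20.7 ± 6.95 CPM in URE GMPs, a log2 fold change of 0.74 that was not called (edgeR adjusted p = 0.183). *Ctse* in GMPs ranged from 20.8 to 25.6 CPM in WT and from 14.6 to 37.9 CPM in URE, at 0.36 (95% interval −0.31 to 1.04). *Ctsa* stood at 0.04 (−0.27 to 0.34), *Ctsb* at −0.13 (−0.53 to 0.27) and *Ctsc* at −0.01 (−0.35 to 0.34). For these 3 genes a change of 1.5-fold lay outside the interval in either direction.

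**Figure D2:**
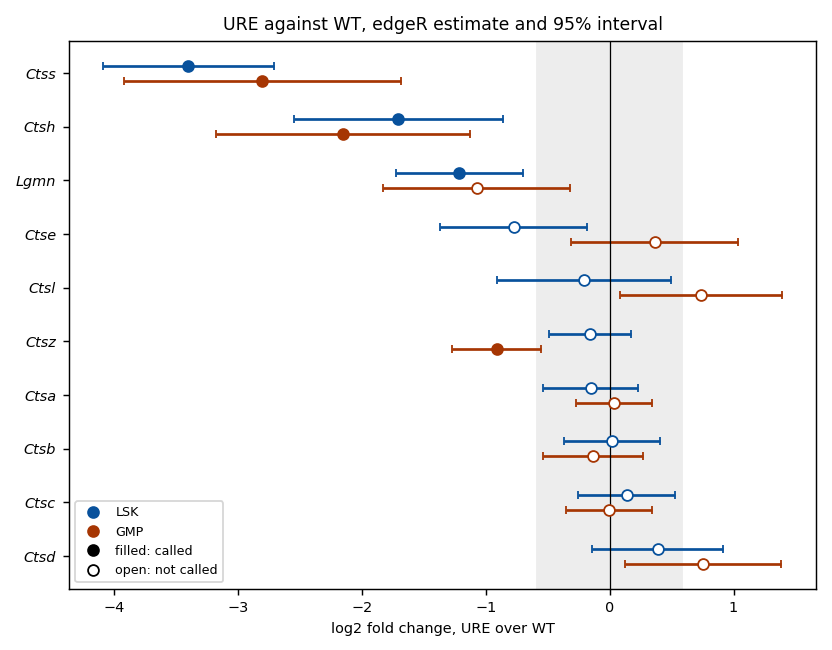
Log2 fold change of URE over WT with its 95% interval for the 10 genes (edgeR), in LSKs in blue and in GMPs in brown, with filled points for called genes and grey for changes under 1.5-fold. *Ctss* stands farthest to the left in both cell types, at −3.40 and −2.80, and *Ctsz* is filled in GMPs alone.

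Whether the genotype effect differed between GMPs and LSKs was tested with all 16 libraries in a single fit, as an interaction. By edgeR, 0 of 10 members were called higher and 0 lower at an adjusted p under 0.05, against 0.866% and 0.351% of the 15935 genes tested. At an unadjusted p under 0.05 there were 2, *Ctsz* and *Ctse*, and DESeq2 called 1. For *Ctsz*, the effect was −0.16 in LSKs and −0.91 in GMPs, and the interaction was −0.77 (SE 0.21, edgeR adjusted p = 0.0892). It was called with the replicate block (edgeR adjusted p = 0.00914), with DESeq2 (adjusted p = 0.0155) and without URE GMP replicate 2 (edgeR adjusted p = 0.0216). For *Ctse* the interaction was 1.11 (SE 0.40, edgeR adjusted p = 0.235). For *Ctss* it was 0.57 (95% interval −0.63 to 1.77), which leaves room for a difference of either sign.

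Several of these genes are known from monocytes and macrophages, so the markers of those cells were measured beside them. Called markers here and below stand against 2.38% of all genes tested called higher and 3.76% lower in LSKs, and 4.67% and 3.63% in GMPs. In LSKs, the 10 listed macrophage and monocyte markers summed to between 33.2 and 62.5 CPM in URE and between 54.5 and 109 CPM in WT, and 2 of 9 tested were called lower. *Marco* was at 0 in every URE LSK library and had a mean of only 0.19 CPM in WT LSKs. In GMPs the 10 markers summed to between 400 and 1326 CPM in URE and between 502 and 896 CPM in WT. There 4 of 9 were called lower, among them *Csf1r*, the receptor of the macrophage growth factor, with 12.7 CPM in URE and 136 CPM in WT GMPs. The sum in URE GMPs was led by *Ly6c2*, a monocyte surface gene, at 631 CPM against 306 CPM in WT, which was not called. Dendritic cell markers summed to at most 10.5 CPM in any library. Of these, 1 of 3 tested was called lower in GMPs. Neutrophil markers summed to between 158 and 264 CPM in URE and between 25.1 and 109 CPM in WT LSKs, and to between 202 and 756 CPM in URE and between 51.1 and 88.3 CPM in WT GMPs. Most of this was *Ngp* and *Camp*, with means of 140 and 60.7 CPM in URE LSKs and 212 and 161 CPM in URE GMPs. Of the neutrophil markers 1 of 6 was called higher in LSKs and 3 of 6 in GMPs, *Ngp* among them in both. *Cxcr2*, the chemokine receptor of mature neutrophils, had 1.38 CPM in URE and 3.12 CPM in WT LSKs and a log2 fold change of −0.28 in GMPs, and was not called in either.

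The markers of the GMP sort itself, led by *Mpo*, the myeloperoxidase gene, summed to between 73139 and 158135 CPM in URE and between 53389 and 69081 CPM in WT GMPs. In GMPs 1 of 6 was called higher, *Fcgr3*, a part of Cd16/32, with 824 CPM in URE and 322 CPM in WT, and in LSKs 1 of 6, *Elane*. Markers of other lineages also separated the genotypes. B cell markers summed to between 24.5 and 34.8 CPM in URE and between 58.0 and 82.5 CPM in WT LSKs, and to between 8.19 and 23.6 CPM in URE and between 61.3 and 88.8 CPM in WT GMPs. Nearly all of this was *Cd79b*, a part of the B cell receptor, which was called lower in both cell types. Mast cell and basophil markers summed to between 96.7 and 188 CPM in URE and between 23.2 and 45.9 CPM in WT LSKs, where 2 of 5 tested were called higher, *Cpa3* and *Mcpt8*. In GMPs their sums overlapped, with 1 of 4 tested called higher (*Mcpt8*) and 2 lower (*Prss34* and *Ms4a2*). T and NK cell markers overlapped in LSKs and summed to between 1351 and 2227 CPM in URE and between 563 and 976 CPM in WT GMPs, nearly all of it *Nkg7*, a granule gene that was called higher, while *Cd3e* was at 0 in every GMP library. The sums of erythroid markers overlapped between genotypes in both cell types, and those of megakaryocyte markers did so in GMPs. In LSKs the WT sums of megakaryocyte markers lay above those of every URE library but the one that stood apart. The part of any of these marker lists in the results for *Ctss*, *Ctsh*, *Lgmn*, *Ctsz* and *Cd74* was not tested. In bulk samples, fewer cells of a type and less RNA per cell cannot be told apart.

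How the 10 genes rank was read from counts per kilobase of exon, scaled to the same total in every library, since counts alone favour long transcripts. In WT LSKs the order was *Ctsd*, *Ctsb*, *Ctsz*, *Ctss*, *Ctsa*, *Ctsc*, *Ctse*, *Lgmn*, *Ctsh* and *Ctsl*, from 396 ± 137 for *Ctsd* to 10.5 ± 2.78 for *Ctsl*. Most neighbours overlapped: *Ctsd* and *Ctsb*, *Ctsb* and *Ctsz*, *Ctss* and *Ctsa*, *Ctse* and *Lgmn*, and *Lgmn* and *Ctsh* did so in their ranges. In URE LSKs *Ctss* had gone from the fourth to the eighth place by its mean, at 13.3 ± 3.01. Its range overlapped those of *Lgmn*, *Ctsh* and *Ctsl*, so the order among these is not settled. *Ctss* made up 11.5% of the members' summed level in WT LSKs and 1.16% in URE LSKs, and 6.24% in WT and 1.06% in URE GMPs.

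In WT GMPs *Ctsz* led, with 494 ± 41.9 and 35.2% of the summed level, followed by *Ctsd* with 324 ± 137 and 22.0%, and the ranges of these 2 genes overlapped. In URE GMPs *Ctsd* led with 524 ± 147 and 41.8%, and *Ctsz* came second with 256 ± 35.5. There the lowest *Ctsd* library, at 356, was above the highest *Ctsz* library, at 304. *Ctsl* had the lowest mean in all 4 groups on this scale, though its range overlapped that of *Ctsh* in both URE groups, and its 6168 bases of annotated exon lower its value here.

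**Figure D3:**
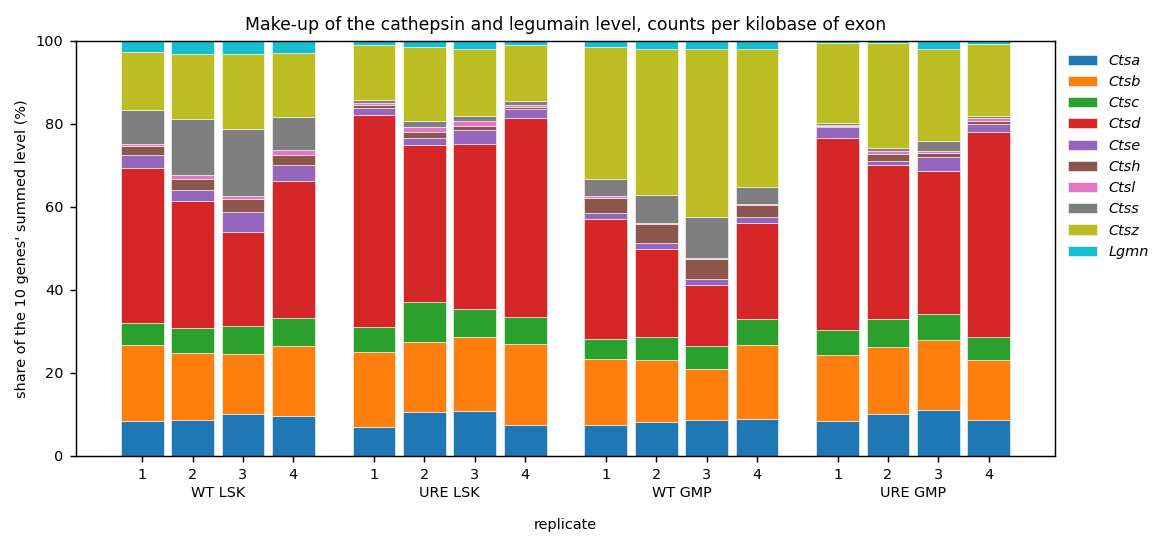
Share of each gene in the summed level of the 10 genes, in percent, in each of the 16 libraries, from counts per kilobase of exon. The grey band of *Ctss* is visible in all 8 WT libraries and thin in the URE libraries, the red band of *Ctsd* is wider on average in URE, and the olive band of *Ctsz* is widest in WT GMPs.

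The next comparison asked how the genes differ between GMPs and LSKs of a genotype, the step from stem and multipotent cells to committed myeloid progenitors. These tests share libraries with those above and add no independent evidence on them. In WT, *Ctsz* and *Ctsh* were higher in GMPs and *Ctse* and *Ctsl* lower, 2 and 2 of 10, against 11.5% of the 14767 genes tested called higher and 15.8% called lower. In URE, *Ctsz* alone was called higher and 0 members lower, against 9.2% of the 14395 genes tested called higher and 12.6% called lower. The members' median log2 difference was 0.25 in WT and 0.32 in URE, beside −0.086 and −0.093 over all genes tested.

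*Ctsz* rose from 113 ± 7.67 CPM in WT LSKs to 381 ± 21.2 CPM in WT GMPs, a log2 difference of 1.74 (SE 0.13, edgeR adjusted p = 4.13e-05). In URE it rose from 104 ± 12.1 to 204 ± 44.0 CPM, a log2 difference of 0.93 (SE 0.17, edgeR adjusted p = 0.00507). Every GMP library was above every LSK library of its genotype. *Ctsh* rose in WT from 20.6 ± 1.86 to 47.9 ± 8.87 CPM, by 1.20 on the log2 scale (edgeR adjusted p = 0.00181). In URE it had 6.43 ± 3.54 and 11.0 ± 7.69 CPM, a difference of 0.72 with a 95% interval from −0.51 to 1.96, which was not called.

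*Ctsl* fell in WT from 26.5 ± 7.79 to 12.3 ± 2.75 CPM, by 1.12 on the log2 scale (edgeR adjusted p = 0.0134), and *Ctse* from 38.0 ± 5.99 to 23.6 ± 2.05 CPM, by 0.70 (edgeR adjusted p = 0.0175). The call of *Ctse* ended without WT GMP replicate 2 or WT LSK replicate 4. In URE, *Ctsl* stood at −0.22 (−0.97 to 0.53) and *Ctse* at 0.38 (−0.41 to 1.17). *Ctsa* had adjusted p values under 0.05 in both genotypes, 0.046 and 0.0469 from edgeR, with log2 differences of 0.41 and 0.55 that are below 1.5-fold. *Ctss* and *Lgmn*, which both fell in URE LSKs, were not called between cell types, at −0.31 and −0.17 in WT and at 0.24 and −0.08 in URE.

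**Figure D4:**
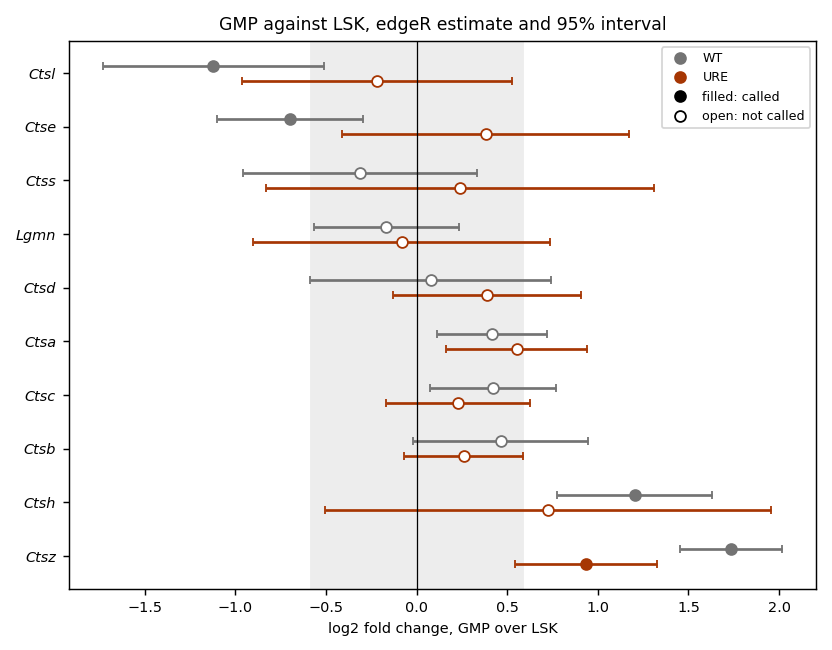
Log2 difference of GMPs over LSKs with its 95% interval for the 10 genes (edgeR), in WT in grey and in URE in brown, with filled points for called genes. *Ctsz* stands farthest to the right in both genotypes, at 1.74 and 0.93, and *Ctsl*, *Ctse* and *Ctsh* are filled in WT alone; whether a cell type difference depends on genotype is the interaction, which was not called for any of the 10.

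The genes most like each member were taken as those 2 with the highest Pearson correlation of log2 CPM over the 16 libraries among 9071 genes, as a description. The libraries share 4 groups, so that a gene which differs between groups will correlate with others that do. *Lgmn* was most like *Ctss* itself (r = 0.92), and *Ctss* was most like *Gm42031* and *Ms4a6b* (r = 0.95 each). *Ctsh* was most like *Emb* (0.98), *Ctsz* like *Mettl1* (0.97) and *Ctsd* like *Usp47* (0.96). *Ctsd* and *Ctss* had r = −0.75. *Ctse* had no close match, at most 0.77 with *Sox6*.

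Genes that work with the cathepsins were read from 7 lists. Within replicates 1 and 4, where the sexes match, 12 of the 14 genes called in LSKs kept their call, all but *Serpina3f* and *Elane*, as did 13 of the 15 called in GMPs, all but *Ctla2b* and *Gnptg*, and 4 of 5 interactions, all but *Sort1*. With the Y-linked covariate 10 of 14, 7 of 15 and 5 of 5 kept it, and *Scpep1*, *Tfec*, *Cst7*, *Serpinb6b*, *Napsa* and *H2-DMa* in GMPs and *Cd74* in LSKs were among those that did not. Within replicates 2 and 3, 10 of 14 kept it in LSKs, all but *Prcp*, *Cpq*, *Igf2r* and *Elane*, and 0 of 15 in GMPs and 0 of 5 interactions. Among other cathepsins and lysosomal peptidases, 1 of 10 tested was called higher and 3 lower in URE LSKs. In URE GMPs 2 were called higher and 2 lower. These and the counts of the other lists, also chosen with earlier results known, stand against 2.38% of all genes tested called higher and 3.76% lower in LSKs. In GMPs the shares were 4.67% and 3.63%. *Scpep1*, a carboxypeptidase related to cathepsin A, ranged from 64.0 to 69.8 CPM in WT LSKs and from 11.1 to 14.2 CPM in URE LSKs, a log2 fold change of −2.40 (edgeR adjusted p = 0.000113). In GMPs it was at −2.41 (edgeR adjusted p = 0.0285), a call that ended without any of the 4 WT libraries or URE replicate 1, 3 or 4. *Prcp*, another serine carboxypeptidase, fell by 1.21 and 1.31 on the log2 scale in LSKs and GMPs, and *Cpq*, a dipeptidase, fell by 1.01 in LSKs. The *Cpq* effect differed between GMPs and LSKs (interaction 1.23, edgeR adjusted p = 0.0266), a call lost in 8 of 16 fits that left out a library. *Napsa*, an aspartic protease, rose by 0.92 in GMPs (edgeR adjusted p = 0.0243), a call lost in 6 of 8 such fits. *Ctsw*, the cathepsin of cytotoxic lymphocytes, went up, from 11.2 to 32.8 CPM in LSKs (log2 fold change 1.52, edgeR adjusted p = 0.0103) and from 0.98 to 7.83 CPM in GMPs (2.98, edgeR adjusted p = 0.00316).

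The regulators of lysosomal genes are led by the MiT/TFE family, which binds CACGTG. Of 6 listed regulators, 1 was called lower in LSKs and 1 in GMPs, and in both it was *Tfec*, the family member known from macrophages. *Tfec* ranged from 16.9 to 25.5 CPM in WT LSKs and from 0.30 to 0.92 CPM in URE LSKs, a log2 fold change of −5.20 (SE 0.38, edgeR adjusted p = 0.000113). In GMPs it ranged from 36.4 to 61.6 CPM in WT and from 0.96 to 16.4 CPM in URE, at −3.26 (edgeR adjusted p = 0.0445), and that call ended without URE replicate 1, 3 or 4 or any WT library. *Tfeb* stood at 0.16 and 0.26, *Tfe3* at −0.56 and −0.40 and *Mitf* at −1.82 and −1.22, none of them called.

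Of 9 genes that carry enzymes to the lysosome, *Igf2r* and *Sort1* were called lower in LSKs and 0 higher. In GMPs *Gnptg*, a subunit of the enzyme that starts the mannose 6-phosphate tag, was called higher, at 0.80, and 0 were lower. The call of *Gnptg* was lost in 7 of 8 fits that left out a library. *Igf2r*, the large receptor for mannose 6-phosphate, ranged from 13.1 to 52.5 CPM in WT LSKs and from 5.92 to 9.17 CPM in URE LSKs (log2 fold change −2.19, edgeR adjusted p = 0.0168), and without URE replicate 1 or 2 or WT replicate 4 the call ended. *Sort1*, the sorting receptor sortilin, had 19.6 CPM in WT and 2.07 CPM in URE LSKs (−3.27, edgeR adjusted p = 0.00333). For both the genotype effect differed between GMPs and LSKs, with interactions of 3.26 (edgeR adjusted p = 0.0218) and 2.52 (edgeR adjusted p = 0.0397). The interaction of *Igf2r* ended without WT LSK replicate 4, and that of *Sort1* without any of 14 of the 16 libraries. *M6pr*, the small receptor, stood at −0.0022 in LSKs and −0.18 in GMPs and was not called.

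Of the cathepsin inhibitors, 1 was called higher and 1 lower of 11 tested in LSKs, against 2.38% and 3.76% of all genes tested. In GMPs 3 were called higher and 2 lower of 10, against 4.67% and 3.63%. *Cst7*, the cystatin of leukocyte lysosomes that restrains cathepsin C, had 168 CPM in WT and 380 CPM in URE GMPs (log2 fold change 1.15, edgeR adjusted p = 0.0333), a call lost in 6 of 8 fits that left out a library, and *Serpinb6b* rose by 1.61. *Serpina3f* fell by 2.73 in LSKs and by 2.52 in GMPs, and *Serpina3g* fell by 1.63 in GMPs. The *Serpina3* and *Ctla2* genes have near-identical copies, among which reads can be split, so that *Ctla2a* (1.38 in LSKs) and *Ctla2b* (1.35 in GMPs) are uncertain, and each call was lost in 6 and 7 of 8 such fits. *Cst3*, the secreted cystatin C, stood at −0.91 in LSKs and −0.83 in GMPs and was not called (adjusted p = 0.0712 and 0.0762 from edgeR).

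Of the granule proteases that cathepsin C activates, 2 of 5 tested were higher and 2 lower in URE LSKs, and 1 was higher and 0 lower in URE GMPs, while *Ctsc* itself was not called in either. *Elane*, neutrophil elastase, had 54.6 CPM in WT and 124 CPM in URE LSKs (1.15, edgeR adjusted p = 0.0416, a call lost without any library but WT replicate 3). *Gzmb* rose from 0.56 to 32.4 CPM in LSKs and from 2.95 to 45.5 CPM in GMPs. *Prtn3*, proteinase 3, fell in LSKs from 213 to 38.8 CPM, and *Prss57* from 34.5 to 6.75 CPM. Both had interactions that were called, at 2.60 (edgeR adjusted p = 0.0179) and 3.14 (edgeR adjusted p = 0.000127).

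Of 4 genes that handle antigen in endosomes, the compartment where cathepsin S and legumain are known to act, 0 were higher in URE in either cell type, 1 was lower in LSKs and 2 in GMPs. *Cd74*, the invariant chain that cathepsin S cuts, ranged from 121 to 328 CPM in WT LSKs and from 38.2 to 95.1 CPM in URE LSKs (−2.04, edgeR adjusted p = 0.0109). In GMPs it had 128 CPM in WT and 5.95 CPM in URE (−4.42, edgeR adjusted p = 0.00117). *H2-DMa*, which loads peptides on MHC class II, fell by 1.22 in GMPs, a call lost without URE replicate 1 or 4 or WT replicate 2. The partners of cathepsins A and D gave 0 calls of 5 in LSKs by edgeR and 1 in GMPs, *Galns*, which rose by 1.85.

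**Figure D5:**
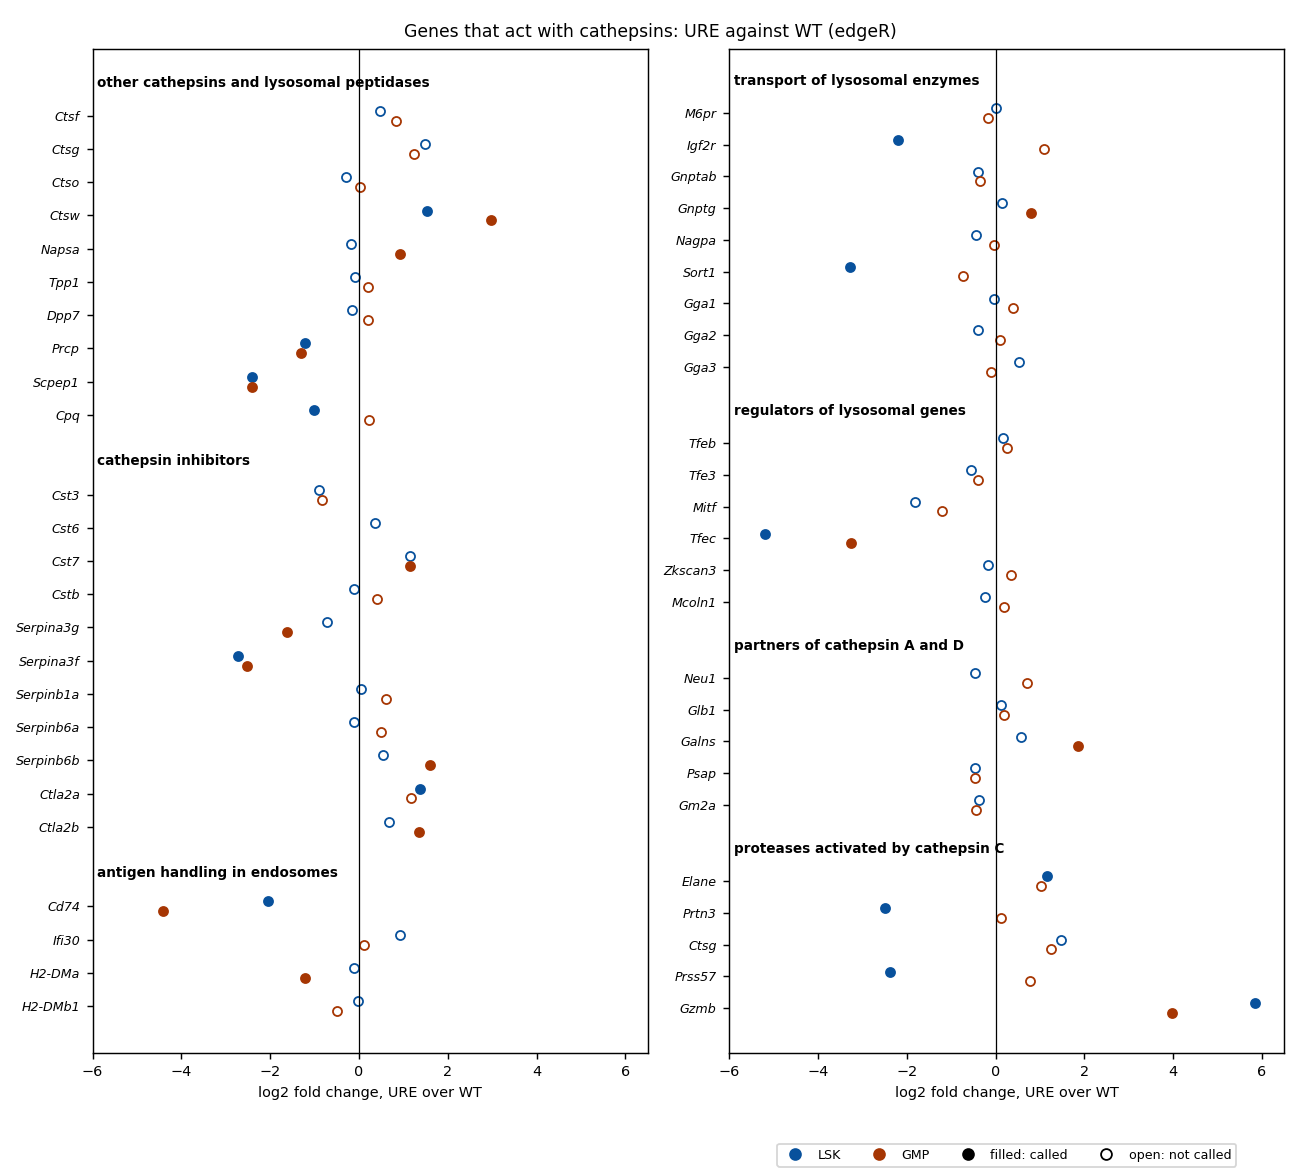
Log2 fold change of URE over WT (edgeR) for the genes tested of 7 lists of genes that act with cathepsins, in LSKs in blue and in GMPs in brown, with filled points for called genes. The farthest points to the left are *Tfec* at −5.20 in LSKs and *Cd74* at −4.42 in GMPs, and the farthest to the right is *Gzmb* at 5.85 in LSKs.

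Libraries without strand cannot separate reads of genes that overlap on opposite strands. Of the members, *Ctsa* shares 324 exonic bases with *Neurl2* and 495 with *Pltp*, *Ctsb* shares 774 with *Fdft1*, and *Ctsz* shares 10 with *Nelfcd*. In every group these partners had lower mean CPM than the member beside them, except *Nelfcd* in URE LSKs, with 116 CPM beside 104 CPM for *Ctsz*. *Ctsd* shares 808 bases with *Gm49369* on its own strand and *Ctsl* shares 1742 with *Gm47123* and 395 with *Gm49230*, all of which were listed at 0 in every library. *Ctss*, *Ctsh*, *Lgmn*, *Ctsc* and *Ctse* share no exonic base with another gene of the annotation. Among the genes named beside them, *Prss57* shares 1157 exonic bases with *Fstl3*, *Gnptg* 1113 with *Unkl*, *Napsa* 502 with *Gm15396*, *H2-DMa* 360 with *Brd2*, *Sort1* 338 with *Gm12523*, *Cpq* 160 with *4930592A05Rik*, *Prtn3* 159 with *Plppr3* and *Scpep1* 96 with *Scpep1os*, all on opposite strands. On its own strand *Ctla2b* shares 1035 of its 1723 exonic bases with *Gm49391* and 390 with *Gm49392*, and *Ctla2a* shares 343 of 2108 with *Gm49391*. The values of these genes may hold reads of their partners.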

How the data were processed

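RNA was measured by paired-end, unstranded, low-input sequencing (up to 10 ng of RNA, no molecular identifiers) of 4 libraries per group. The authors quantified reads with salmon and summed them per gene with tximport, and the deposited values are estimated counts, as whole numbers, for 54347 genes on GRCm38. The submitters' processing notes name Salmon and GRCm38, and the version and annotation release are not given in the sources used here. No column was left unmapped. Of the gene identifiers, 54094 were in GENCODE M21, which gave coordinates and exon lengths.

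Each comparison was fitted separately with edgeR 4.0.16 (limma 3.58.1, R 4.3.3): TMM, filterByExpr, the quasi-likelihood test and Benjamini-Hochberg adjustment over all genes tested. Calls needed an adjusted p under 0.05 and a fold above 1.5 (interaction: adjusted p alone). The study's methods used DESeq2 with these thresholds. Standard errors come from the log2 fold change and F. CPM use TMM factors over all 16 libraries. The permutation tests, exact and two-sided, ran on log2 CPM (prior count 2). Plots were drawn with matplotlib 3.10.9.

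Replicate numbers come from the labels. Deviations of same-numbered libraries correlated with r from 0.30 to 0.61 between genotypes in LSKs, 0.28 to 0.62 in GMPs, 0.47 to 0.77 between cell types in WT and 0.44 to 0.58 in URE. Differently numbered libraries had means of −0.14, −0.15, −0.21 and −0.16, and reached 0.43, 0.48, 0.32 and 0.40. The numbers thus pair the samples on average, though between genotypes the ranges overlap. The fit without the block, which leaves this pairing out, is the one reported. Blocked values stand beside the members whose calls they change. Alternatives were run for members and for list genes called in a comparison, not for other list genes. The libraries of a group are separate mice by the study's methods, not by the labels.

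Alternatives were DESeq2 1.42.0, median-of-ratios size factors, no filter, a filter of 1 CPM in 4 libraries, a joint fit, the replicate block, replicates 1 and 4 or 2 and 3 only, the Y-linked level as a covariate, no fold threshold, a prior count of 0.5, and each library left out. The members, lists and alternatives were chosen with earlier results of these data known. Named genes are the 10 members, *Spi1*, genes of the lists that were called in a comparison, the 2 genes most like each member, and, chosen after their values were seen, uncalled list genes set beside them, markers and overlapping genes. The script was tested on simulated data. Reads without molecular identifiers are not independent molecules, so depth gives counting error only.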

Additional observations from a re-analysis of the deposited data

Results flagged for a closer look

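In 2 of 40 groups of 4 libraries, a single library lay far from the other 3, by Dixon's test at the 95% level, which chance does in about 1 group in 20. *Ctsc* had 241.7 CPM in the URE LSK library of replicate 2 against 161.9 to 169.1 CPM in the others of that group. *Ctsz* had 269.4 CPM in the URE GMP library of replicate 2 against 173.6 to 188.6 CPM in the others. The genotype difference of *Ctsz* in GMPs was called with and without that library, at a log2 fold change of −0.91 and −1.09.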

How the results depend on the processing

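Direction and call were tallied over 10 members and all alternatives but no fold threshold and the prior count. They held in 149 of 170 values for URE against WT in LSKs and 146 of 170 in GMPs. For GMPs against LSKs they held in 149 of 160 values in WT and 145 of 160 in URE, and for the interaction in 234 of 240. Replicates 2 and 3 alone called 1 member lower in LSKs and 0 in GMPs (3 in each with all libraries), 0 lower in WT GMPs against LSKs (2) and 0 higher in URE GMPs against LSKs (1). Replicates 1 and 4 alone called 0 lower in WT and 3 higher in URE. With no filter or with the joint fit 1 was lower in WT. In URE 2 were higher with DESeq2, median-of-ratios size factors, the joint fit or no fold threshold. With no fold threshold *Ctsa* was also called higher in WT, at a log2 difference of 0.41 (edgeR adjusted p = 0.046). With the replicate block 1 member was higher in GMPs (*Ctsd*) and 1 had a lower interaction (*Ctsz*, also with DESeq2). Beyond these and *Ctse* in LSKs and *Lgmn* in GMPs, pairing by the block changed no other call of a member. The cause of these changes was not tested, other than that subsets hold fewer libraries. Once the Y-linked level was fitted too, *Ctsh* was no longer called, at −1.83 in LSKs (edgeR adjusted p = 0.0814) and −2.53 in GMPs (edgeR adjusted p = 0.0677).

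Signs turned for genes that were not called. For URE against WT in LSKs these were *Ctsa* (0.14) and *Ctsl* (0.21) in replicates 2 and 3, *Ctsb* (−0.068) and *Ctsc* (−0.093) in replicates 1 and 4, and *Ctsb* with the Y-linked level (−0.0085). In GMPs they were *Ctsa* in replicates 1 and 4 (−0.097) and with the Y-linked level (−0.055), *Ctsb* (0.040) and *Ctsc* (0.032) in replicates 2 and 3, and *Ctsc* in the joint fit (0.0046). For URE GMPs against LSKs they were *Ctsl* (0.26) and *Ctss* (−0.19) in replicates 1 and 4 and *Lgmn* (0.014) in replicates 2 and 3, and for the interaction *Ctsc* (0.015) in replicates 1 and 4.

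Without each library in turn, members called lower ranged from 1 to 3 in LSKs, 2 to 3 in GMPs and 1 to 2 in WT GMPs against LSKs. Between cell types, members called higher ranged from 2 to 3 in WT and from 1 to 2 in URE. Lower interactions ranged from 0 to 1. The call gained in WT was *Ctsb* without WT GMP replicate 3, at 0.64 (edgeR adjusted p = 0.0301). Ranges that crossed 0 were *Ctsb* −0.086 to 0.099 and *Ctsc* −0.0039 to 0.21 in LSKs, *Ctsa* −0.060 to 0.087 and *Ctsc* −0.11 to 0.060 in GMPs, *Ctsd* −0.094 to 0.31 between WT cell types, *Ctss* −0.36 to 0.50 and *Lgmn* −0.49 to 0.17 between URE cell types, and *Ctss* −0.038 to 0.82 and *Lgmn* −0.31 to 0.31 for the interaction.

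Over all genes, 360 higher and 570 lower in LSKs became 679 and 956 with DESeq2, 157 and 229 in replicates 2 and 3, and 190 and 320 with the Y-linked level, and 581 were higher with the block. In GMPs 646 and 502 became 1112 and 885 with DESeq2, 1317 and 943 with the block, 56 and 52 in replicates 2 and 3, and 331 and 299 with the Y-linked level. Between WT cell types 2335 lower became 3706 with the block and 1230 in replicates 2 and 3. Between URE cell types 1325 higher became 2034 in replicates 1 and 4, and 1325 and 1808 became 363 and 447 in replicates 2 and 3. For the interaction 138 and 56 became 416 and 258 with DESeq2, 632 and 415 with the block and 1 and 1 in replicates 2 and 3, and 56 became 36 with no filter and 37 in replicates 1 and 4. Leaving out 1 library also moved these counts by over 1.5 times: in LSKs to 206 higher and 359 lower without WT replicate 2 and to 219 higher without WT replicate 4, and in GMPs to 395 and 320 without URE replicate 4. Interactions ranged from 66 to 188 higher and from 18 to 95 lower, both lowest without URE GMP replicate 4.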
